A study of Rattus norvegicus with 3 samples.

Results

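Transcription factors that drive epithelial cells into a mesenchymal state were measured in 2 rat sarcoma lines and in bone marrow cells. The genes were Snai1, Snai2, Twist1, Twist2, Zeb1, Zeb2 and Tcf4, and every probe whose RefSeq accession the gene table assigned to one of them was taken, whatever its value. Such a probe was found for 6 of the 7 genes, 8 probes in all, out of 16660 named probes for 13229 genes. No probe was assigned to Zeb1 by the gene table, so its level was not analysed here. COS1NR is an osteosarcoma line and MFH1NR is a malignant fibrous histiocytoma (MFH) line, both derived from tumors that 4-HAQO had induced in F344 rats. By the methods of the study both lines carry a p53 mutation. The mesenchymal stem cells (MSCs) came from femur marrow of F344 rats by adherence to plastic and were not sorted, so each sarcoma is 1 line and the MSC culture is a mixed one. As the methods state, the MSCs were kept in medium with more fetal bovine serum than the sarcoma lines. No age of the animals was given in the sources used here. RNA of each of the 3 cell types was labeled with Cy3 and hybridized to 1 array, which left no replicates and no test.

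Snail proteins (Snai1 and Snai2) are zinc finger repressors that bind a short DNA element called an E-box in the promoters of epithelial genes such as the E-cadherin gene Cdh1. Zeb proteins (Zeb1 and Zeb2) bind the same kind of element through paired zinc finger clusters. Twist1, Twist2 and the E protein Tcf4 are basic helix-loop-helix (bHLH) factors that bind DNA as dimers, and Id proteins take up E proteins without binding DNA. Cells of mesenchymal origin, such as marrow stromal cells and sarcomas, commonly express several of these factors. Twist proteins are also known to restrain osteoblast maturation, and Snai2 is best known from the neural crest.

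The E-box that Snail and Zeb factors prefer reads CACCTG, or CAGGTG on the opposite strand. It was searched in the 250 bases before the start of each gene in RefSeq sequence of the GRCr8 assembly. The promoter table held 6 of the 7 factor genes, and 2 of them carried these letters, 1 copy each in Snai1 and Zeb1, against 15.9% of all 33469 promoters. The 3 factor promoters below are shown because Snai1 stood lower and both Twist genes higher in the sarcomas than in MSCs, and the letters of the E-box are in capitals. Snai1 carried it 142 bases before the start, and the Twist promoters did not carry it.
Snai1, chr3:176667226-176667475, plus strand: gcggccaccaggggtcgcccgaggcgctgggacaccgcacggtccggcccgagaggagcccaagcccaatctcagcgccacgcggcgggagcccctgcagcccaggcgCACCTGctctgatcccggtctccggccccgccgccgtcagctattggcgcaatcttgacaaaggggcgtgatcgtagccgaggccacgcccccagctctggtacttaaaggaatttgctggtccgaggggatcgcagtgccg
Twist1, chr6:56402059-56402308, plus strand: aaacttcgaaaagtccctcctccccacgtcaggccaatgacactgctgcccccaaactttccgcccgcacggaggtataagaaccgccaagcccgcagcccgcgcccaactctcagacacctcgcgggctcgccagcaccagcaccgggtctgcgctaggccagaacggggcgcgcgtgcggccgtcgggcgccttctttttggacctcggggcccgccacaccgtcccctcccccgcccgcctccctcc
Twist2, chr9:99821992-99822241, plus strand: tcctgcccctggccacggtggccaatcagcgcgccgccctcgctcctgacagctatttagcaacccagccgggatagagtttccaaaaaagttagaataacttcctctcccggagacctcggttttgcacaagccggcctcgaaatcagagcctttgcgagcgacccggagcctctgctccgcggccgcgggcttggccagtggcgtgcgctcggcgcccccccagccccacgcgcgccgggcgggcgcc
In a list of 28 epithelial genes that these factors are known to repress, 16 had a promoter in the table, and 14 of these carried the E-box (87.5%). Cdh1 had no promoter in the table. In a list of 30 mesenchymal genes 16 were in the table, and 2 of these carried it (12.5%). The epithelial list was made of known targets and only partly covered, so its share was no test. The looser motif CANNTG, which contains the other and reads the same on both strands, was in 65.5% of all promoters, 93.8% of the epithelial and 56.2% of the mesenchymal ones. Shown as examples of the epithelial list are 3 genes that carry the E-box: Cldn7, with 4 copies, and Krt8 and Jup, with 1 copy each. Krt8 and Jup are described further below, and Cldn7 was not well above background on any array. Krt18, at least 14.4-fold lower in COS1NR and 18.1-fold lower in MFH1NR than in MSCs, carried neither motif.
Cldn7, chr10:55188420-55188669, plus strand: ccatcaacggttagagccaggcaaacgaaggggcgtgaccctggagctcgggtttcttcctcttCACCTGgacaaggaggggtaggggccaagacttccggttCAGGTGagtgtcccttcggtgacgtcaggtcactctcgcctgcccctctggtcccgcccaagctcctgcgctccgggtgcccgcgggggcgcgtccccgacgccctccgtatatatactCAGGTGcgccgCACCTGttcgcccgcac
Krt8, chr7:135010340-135010589, minus strand: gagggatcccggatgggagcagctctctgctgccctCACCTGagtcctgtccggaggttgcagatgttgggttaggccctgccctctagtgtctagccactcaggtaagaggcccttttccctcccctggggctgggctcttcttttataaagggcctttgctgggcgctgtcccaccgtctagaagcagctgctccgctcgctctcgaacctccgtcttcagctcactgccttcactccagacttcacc
Jup, chr10:85827430-85827679, minus strand: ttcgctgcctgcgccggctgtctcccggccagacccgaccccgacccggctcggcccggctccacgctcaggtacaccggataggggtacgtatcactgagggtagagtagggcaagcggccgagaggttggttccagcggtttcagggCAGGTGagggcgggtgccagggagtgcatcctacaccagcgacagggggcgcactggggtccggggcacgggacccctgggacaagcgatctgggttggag
A match of letters is a description of the sequence and not a binding site.

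**Figure D1:**
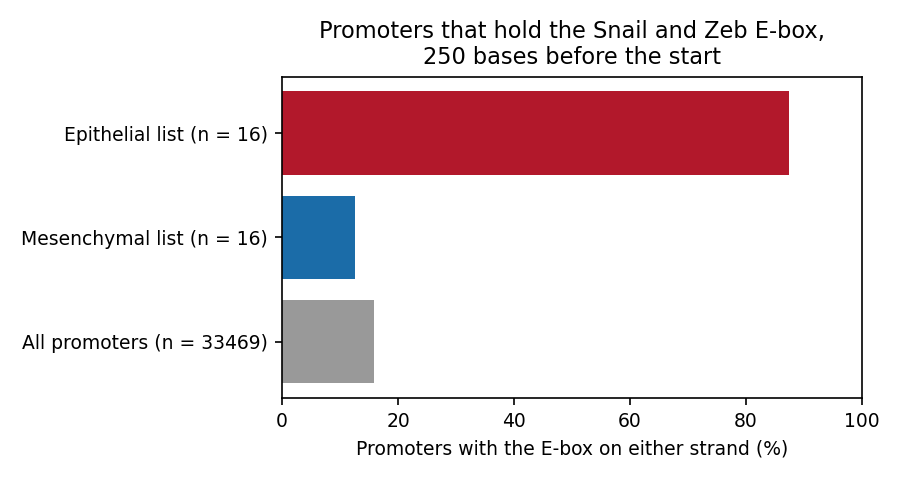
Share of promoters, in percent, that held the letters CACCTG on either strand within 250 bases before the start. Shown are all promoters in the table and the genes of each list that the table held. The epithelial list stood at 87.5%, all promoters at 15.9% and the mesenchymal list at 12.5%.

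Of 43379 spots per array that were not controls, 25899 on the MSC array, 24551 on the COS1NR array and 25246 on the MFH1NR array were well above background by the scanner software. The 75th percentile of the intensity was 589, 774 and 994 in the same order, and each level below is an intensity divided by that of its array unless called an intensity. The sarcoma arrays lay on 1 slide and the MSC array on another, and the serum differed in the same way. For every ratio to MSCs the slide, the serum and the cell type therefore cannot be told apart. Of 15 macrophage markers, 15 were well above background in MSCs, 8 in COS1NR, but 7 in MFH1NR, and their summed level was 199, 13.03 and 5.22. All 6 proliferation markers were well above background on every array, with summed levels of 29.1, 146 and 122. The part of other cells and of proliferation in the results below was not tested. In bulk RNA, fewer cells of a type and less RNA per cell cannot be told apart.

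All 8 probes of the transition factors were well above background on all 3 arrays. The error of a log2 ratio, from the error that the software gave each spot, was near 0.20 for the bright probes and covers neither cultures nor labeling.

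**Figure D2:**
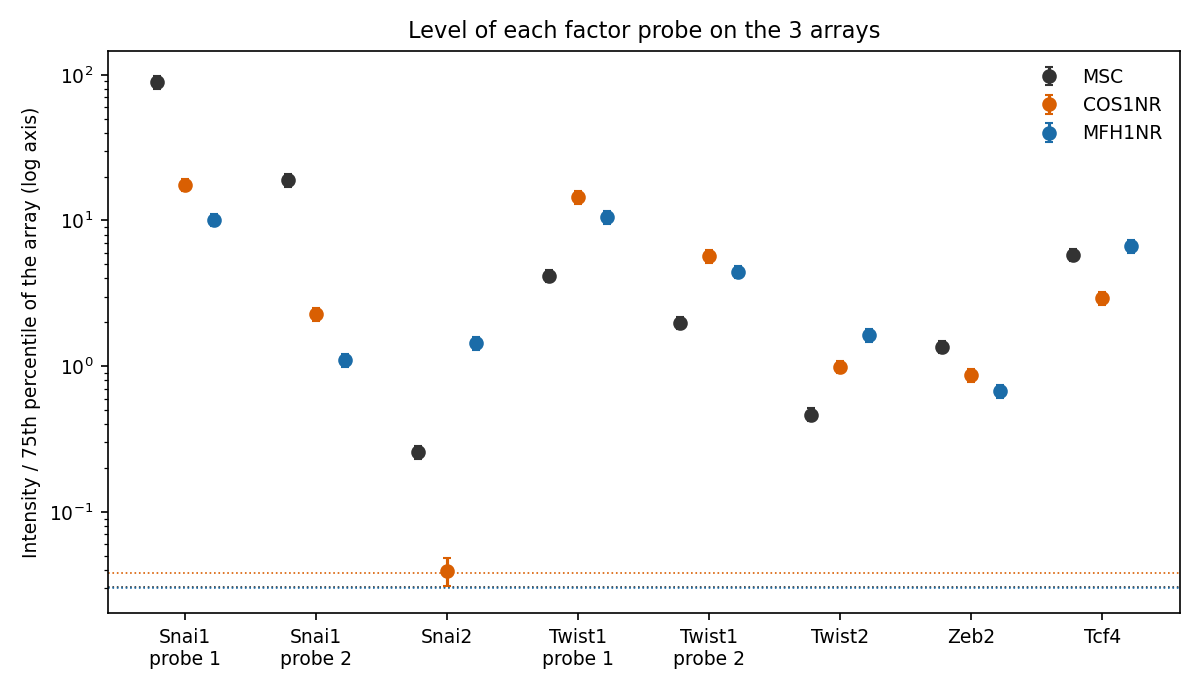
Level of each probe of the transition factors on the 3 arrays, on a log axis as the intensity over the 75th percentile of the array, with the software's spot error as bars and dotted lines at the lowest level called well above background on each array. Levels may be compared between the arrays of a probe but not between probes. Both Snai1 probes were highest in MSCs, Snai2 was lowest in COS1NR and highest in MFH1NR, and the Twist probes were lowest in MSCs.

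Snai1, the founding Snail repressor of Cdh1, was much higher in MSCs than in either sarcoma. The intensity of its brighter probe was 52248 in the MSC culture, 13590 in COS1NR and 10065 in MFH1NR. Relative to the 75th percentile these were levels of 88.7, 17.6 and 10.1. Snai1 was thus 5.05-fold lower in COS1NR (log2 ratio -2.34 ± 0.20) and 8.76-fold lower in MFH1NR (log2 ratio -3.13 ± 0.20). Of the other genes, 8.38% had a lower ratio of COS1NR to MSCs and 6.64% a lower ratio of MFH1NR to MSCs. The second probe of Snai1 had intensities of 11148, 1764 and 1093 and gave larger differences, 8.30-fold and 17.2-fold. The log2 ratios of the probes differed by 0.72 for COS1NR and 0.97 for MFH1NR. Among all genes with both probes measured, the median of that difference was 0.28 and 0.32, and 1 gene in 10 was past 0.93 and 1.01. Both probes were in the same order, MSCs, then COS1NR, then MFH1NR, and the sarcomas were 1.74-fold or 2.08-fold apart, a log2 ratio of -0.80 for the brighter probe that shrank to -0.00296 with spike-in scaling. Snai1 was the 1 measured factor of 6 at least 2-fold lower in both lines, as were 13.6% of all genes. The macrophage markers were lower in the sarcomas too. Their median log2 ratio was -4.13 or less in COS1NR and -5.32 or less in MFH1NR, since many of these ratios were bounds.

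Snai2 (Slug), the other Snail repressor, differed more between the sarcomas than any other measured factor. Its intensity was 152 in the MSC culture, 30.5 in COS1NR and 1424 in MFH1NR. The levels were 0.258, 0.0394 and 1.43 in this order, so that the COS1NR spot lay just above the lowest intensity called there, 29.4. Snai2 was 6.57-fold lower in COS1NR than in MSCs (log2 ratio -2.71 ± 0.35) and 5.54-fold higher in MFH1NR than in MSCs (log2 ratio 2.47 ± 0.21). Between the sarcomas, which shared a slide, Snai2 was 36.4-fold higher in MFH1NR (log2 ratio 5.19 ± 0.35). A total of 99.2% of the other genes had a lower ratio of MFH1NR to COS1NR. It was the only one of the 6 measured factors at least 2-fold from MSCs in opposite directions in the sarcomas, as were 222 of 9481 genes overall (2.34%). Only 1 probe named Snai2, so that no second probe stood beside it. Across the settings tried, the log2 ratio of COS1NR to MSCs lay between -2.99 and -1.53, the latter with the normexp background correction, and that of MFH1NR to COS1NR stayed between 3.61 and 5.98.

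Twist1, a bHLH factor needed for mesoderm and skull formation, was higher in both sarcomas. Its brighter probe had an intensity of 2460 in the MSC culture, 11157 in COS1NR and 10500 in MFH1NR. The level of 4.18 in MSCs stood against 14.4 in COS1NR and 10.6 in MFH1NR. The difference from MSCs was 3.45-fold in COS1NR (log2 ratio 1.79 ± 0.20) and 2.53-fold in MFH1NR (log2 ratio 1.34 ± 0.20). The second probe gave close values, 2.87-fold and 2.24-fold. Twist1 was 0.732 times as high in MFH1NR as in COS1NR by the first probe and 0.781 times by the second, a direction that turned when the arrays were scaled to the spike-in probes.

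Twist2, its close relative, was also lowest in MSCs but highest in MFH1NR. Its intensity was 274 in the MSC culture, 768 in COS1NR and 1628 in MFH1NR, or levels of 0.466, 0.992 and 1.64. Twist2 was 2.13-fold higher in COS1NR (log2 ratio 1.09 ± 0.20) and 3.51-fold higher in MFH1NR (log2 ratio 1.81 ± 0.20) than in MSCs. The COS1NR value was near the 2-fold limit and fell to a log2 ratio of 0.87 with another background correction and 0.82 with spike-in scaling. The sarcomas were 1.65-fold apart, a log2 ratio of 0.72 that became 1.08 without scaling and 1.52 with spike-in scaling. Twist1 and Twist2 were the measured factors higher than MSCs by at least 2-fold in both lines, 2 of 6, against 11.3% of all genes. Proliferation markers were higher in both lines as well, 6 of 6, with median log2 ratios of 2.49 in COS1NR and 2.48 in MFH1NR.

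Zeb2, a zinc finger and homeodomain repressor that is also active in myeloid cells, had the smallest range over the 3 arrays. Its intensity was 800 in the MSC culture, 672 in COS1NR and 674 in MFH1NR. The levels of 1.36, 0.869 and 0.678 made it 0.640 times as high in COS1NR as in MSCs and 0.499 times as high in MFH1NR, log2 ratios of -0.64 ± 0.20 and -1.004 ± 0.20. The MFH1NR value lay at the 2-fold limit and was -0.25 without scaling, -0.49 with spike-in scaling and -0.79 with median scaling. MFH1NR and COS1NR differed by a log2 ratio of -0.36, which turned to 0.0026 without scaling and to 0.43 with spike-in scaling. Macrophage markers were lower in both lines beside it, as given above.

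Tcf4 is the E protein of the bHLH family and not the Wnt effector Tcf7l2, which shares the older name. Its intensity was 3438 in the MSC culture, 2274 in COS1NR and 6618 in MFH1NR, with levels of 5.84, 2.94 and 6.66. Tcf4 was 0.504 times as high in COS1NR as in MSCs, a log2 ratio of -0.99 ± 0.20 at the edge of the 2-fold limit. In MFH1NR the log2 ratio to MSCs was 0.19, which did not exceed its spot error of 0.20 but reached 0.94 without scaling and 0.71 with spike-in scaling. Between the sarcomas Tcf4 was 2.26-fold higher in MFH1NR (log2 ratio 1.18 ± 0.20, and up to 1.97 across the settings). Snai2 and Tcf4 were the factors at least 2-fold higher in MFH1NR than in COS1NR, joined by Twist2 without scaling and with spike-in scaling.

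**Figure D3:**
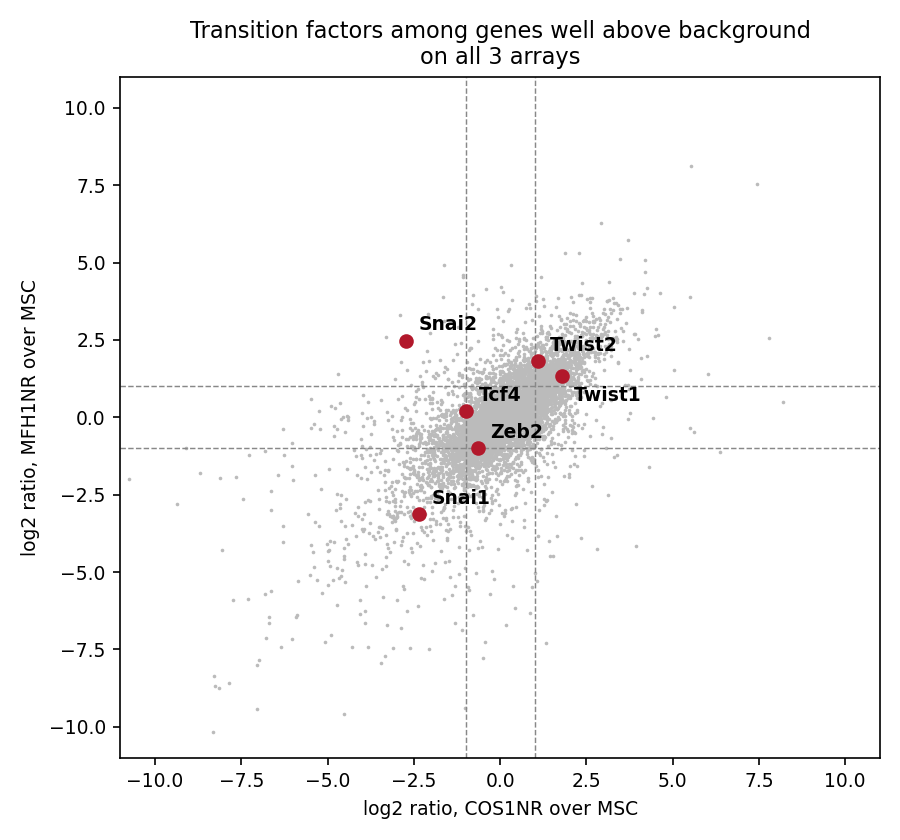
Log2 ratio of COS1NR to MSCs on the x axis and of MFH1NR to MSCs on the y axis for the 6 measured factors, as red points over all other genes in gray that were well above background on the 3 arrays. Both ratios share the MSC array. Twist1 and Twist2 lay in the upper right, Snai1 in the lower left, and Snai2 in the upper left at -2.71 and 2.47.

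By count, 4 of 6 measured factors were at least 2-fold from MSCs in COS1NR, 2 higher and 2 lower, where 40.6% of 9668 genes were (20.6% higher and 20.0% lower). In MFH1NR 5 of 6 were, 3 higher and 2 lower, where 40.9% of 9783 genes were (19.3% higher and 21.6% lower). Between the sarcomas 2 of 6 were at least 2-fold apart, both higher in MFH1NR, where 27.5% of 9383 genes were (12.4% higher and 15.1% lower). At 3-fold the counts were 3, 3 and 1 of 6, where 22.8%, 24.5% and 15.7% of genes were that far apart. The factors did not move as 1 block. Their median log2 ratio was -0.82 in COS1NR and 0.76 in MFH1NR, against 0.09 and 0.01 over all genes.

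The range between the highest and the lowest array was a log2 difference of 5.19 for Snai2 and 3.13 for the brighter probe of Snai1. It was 1.81 for Twist2, 1.79 for Twist1, 1.18 for Tcf4 and 1.004 for Zeb2. The median over 7895 genes well above background on all arrays was 1.04, so that Zeb2 and Tcf4 varied about as much as a typical gene. A smaller range than that of Snai2 was seen in 98.3% of these genes, and a smaller one than that of Snai1 in 93.1%.

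Genes with the most similar pattern were found as the smallest distance in the pair of log2 ratios to MSCs, over 3 arrays only. For Snai1 these were Cfap141, Ccl5 and Tgfb2, at distances of 0.11 to 0.12. Snai2 had no close neighbor, and Casp1, Lrrn4cl and Arnt2 lay nearest at 0.60 to 0.71. For Twist1 they were Gstp1, Camk1 and Ubr7, and for Twist2 Sfmbt1, Dus1l and Xpo1. For Zeb2 they were Cttn, Dpp3 and Prdm4, and for Tcf4 Usp2, Ldb1 and Castor1. Within a distance of 0.1 there were 26 genes for Zeb2, 11 for Twist1, 7 each for Twist2 and Tcf4, and 0 for Snai1 and Snai2.

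**Figure D4:**
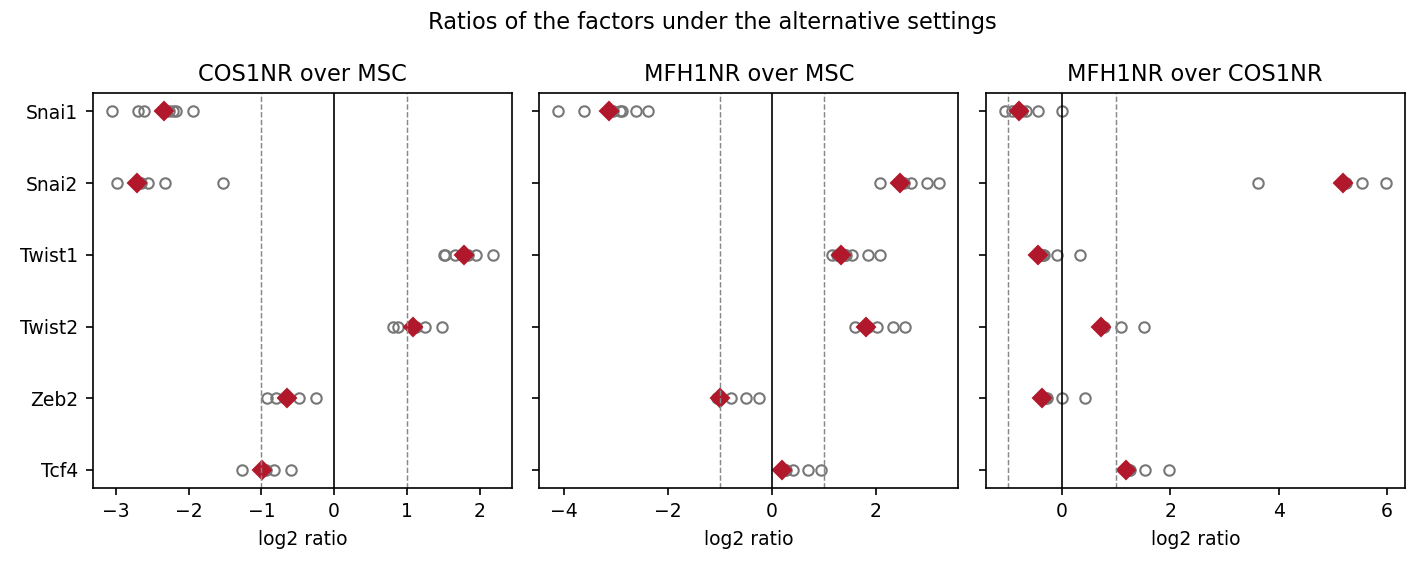
Log2 ratios of the 6 measured factors in the 3 comparisons, with the reported value as a red diamond, the values under the alternative settings as open circles and the 2-fold limits as dashed lines. All 6 factors kept their side of 0 against MSCs, while Zeb2 and Twist1 crossed 0 between the sarcomas.

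Partners of the bHLH factors, among them the Id genes, whose proteins sequester E proteins, did not move together. Id1 had an intensity of 566 in the MSC culture, 9702 in COS1NR and 50908 in MFH1NR, log2 ratios of 3.70 and 5.73 to MSCs. Id2 had log2 ratios of 0.07 in COS1NR and 1.65 in MFH1NR. Id3 was bright on every array, at 52194, 34992 and 81297, with log2 ratios of -0.97 and -0.12, and the latter was above 0 under some scalings. Id4 had an intensity of 1538 in MSCs and 1233 in COS1NR but not well above background in MFH1NR, at least 86.3-fold lower there than in MSCs. The Id4 log2 ratio of COS1NR to MSCs was -0.71 and, by the second probe, -1.45. Tcf3 and Tcf12 encode E proteins that, like Tcf4, can pair with Twist. Tcf3 had log2 ratios of -0.14 and 0.13, and Tcf12 of -1.22 and -0.36, of which the COS1NR value was -0.83 and the MFH1NR value turned without scaling. Of these 6 partners 1 was at least 2-fold higher and 1 lower in COS1NR, and 2 were higher and 1 lower in MFH1NR. Over all genes the shares were 20.6% higher and 20.0% lower in COS1NR and 19.3% and 21.6% in MFH1NR, so that 1 of 6 each way was near the background. The number lower in COS1NR was 0 without scaling, 2 with spike-in scaling and 3 when each gene's probes were averaged.

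Other factors linked to mesenchymal transition were counted next. Of 7 genes with a measured probe out of 16 in the list, 4 were at least 2-fold higher and 1 lower in COS1NR than in MSCs, against 20.6% and 20.0% of all genes. In MFH1NR 0 were higher and 4 lower, against 19.3% and 21.6%, but without scaling or with spike-in scaling 1 was higher and 1 lower. Between the sarcomas 5 of 7 were lower in MFH1NR, against 15.1%, and 1 was higher, against 12.4%. Etv4, an ETS factor, had an intensity of 148 in the MSC culture, 2606 in COS1NR and 468 in MFH1NR, and Fosl1, an AP-1 subunit, of 5080, 16278 and 3200. Etv4 had a log2 ratio of 0.90 in MFH1NR, which passed 2-fold at 1.66 without scaling, 1.42 with spike-in scaling and 1.12 with median scaling. The MFH1NR ratio of Fosl1 to MSCs was -1.42 in log2 and -0.67 without scaling. Prrx1, a homeobox factor of limb and skeletal mesenchyme, was lower in both lines, with log2 ratios of -2.43 in COS1NR and -1.36 in MFH1NR, the latter -0.61 without scaling. The median log2 ratio of the list was 1.29 in COS1NR and -1.05 or less in MFH1NR, where some ratios were bounds.

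Most corepressors and stability regulators of Snail and Zeb proteins were within 2-fold of MSCs. Of 14 corepressors and histone modifiers, 2 were at least 2-fold higher in COS1NR, 4 in MFH1NR, and 0 were lower in either. Of all genes, 20.6% and 19.3% were higher and 20.0% and 21.6% lower, and without scaling 7 of the 14 were higher in MFH1NR. Ezh2, the Polycomb methyltransferase, had log2 ratios of 2.31 and 1.68, and the deacetylase gene Hdac1 of -0.64 and -0.53. Of 10 stability and phosphorylation regulators, 9 in COS1NR and 8 in MFH1NR were within 2-fold of MSCs, while 40.6% and 40.9% of all genes were not. Btrc, which recognizes phosphorylated Snail for degradation, had log2 ratios of 0.46 and 0.9996, the latter just within 2-fold but between 1.13 and 1.75 under other scalings, and the kinase gene Pak1 of -0.21 and -1.59, the latter -0.83 without scaling.

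Signaling genes that induce the factors were often lower in the sarcomas. Of 16 measured, 10 were at least 2-fold lower in COS1NR and 9 in MFH1NR, with 0 higher in either, against 20.0% and 21.6% lower and 20.6% and 19.3% higher over all genes. Without scaling 6 were lower and 4 higher in MFH1NR. The median log2 ratio was -1.47 or less in COS1NR, where some ratios were bounds, and -1.47 in MFH1NR. Egfr, the epidermal growth factor receptor, had an intensity of 447 in the MSC culture, 45.7 in COS1NR and 53.1 in MFH1NR. The TGF-beta receptor gene Tgfbr2 was at the other end of the list, with log2 ratios of 0.34 and 0.96, and the MFH1NR value was between 1.02 and 1.71 under other scalings, which made it at least 2-fold higher.

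Few epithelial genes were well above background on all arrays. Of 25 with a named probe, 12 were not well above background on any array, 6 were so in MSCs alone and 4 on all 3. Of all 13229 named genes, 24.6% were not well above background on any array and 59.7% were on all 3. Cdh1 had an intensity of 30.1 in MSCs and was not well above background in the sarcomas, at least 1.34-fold lower in COS1NR and 1.69-fold lower in MFH1NR. Of 12 with a ratio, 3 were at least 2-fold higher and 4 lower in COS1NR, and 2 higher and 4 lower in MFH1NR. For COS1NR 20.6% of all genes were higher and 20.0% lower, while for MFH1NR these shares were 19.3% and 21.6%. Many of the 12 ratios were bounds, so genes such as Cdh1 may be lower than counted. Without bounds and without the filter on dim probes, 4 of 25 genes were higher and 7 lower in each line. Those counts include intensities not well above background. Of the 12, 4 were higher and 4 lower in MFH1NR without scaling, as with spike-in scaling. With the normexp correction 1 was higher and 3 lower in COS1NR, while 1 was higher and 4 lower in MFH1NR. Cldn4, a tight junction claudin, had intensities of 29.8, 111 and 117 with log2 ratios of 1.504 and 1.22, which shrank to 0.51 and 0.20 with another background correction. Ovol2, a repressor of Zeb1, stayed between 21.5 and 41.3. Among genes picked after their values were seen, the simple keratin gene Krt8 had an intensity of 268 in the MSC culture, at least 12.0-fold and 15.1-fold above the sarcomas. Jup, which encodes plakoglobin, had 320 in MSCs and was at least 13.8-fold and 18.0-fold lower in COS1NR and MFH1NR. In the other direction, the claudin gene Cldn1 was at least 8.57-fold higher in MFH1NR than in MSCs, the protease inhibitor gene Spint1 at least 4.87-fold higher in COS1NR, and the splicing factor gene Esrp2 2.15-fold higher in COS1NR.

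**Figure D5:**
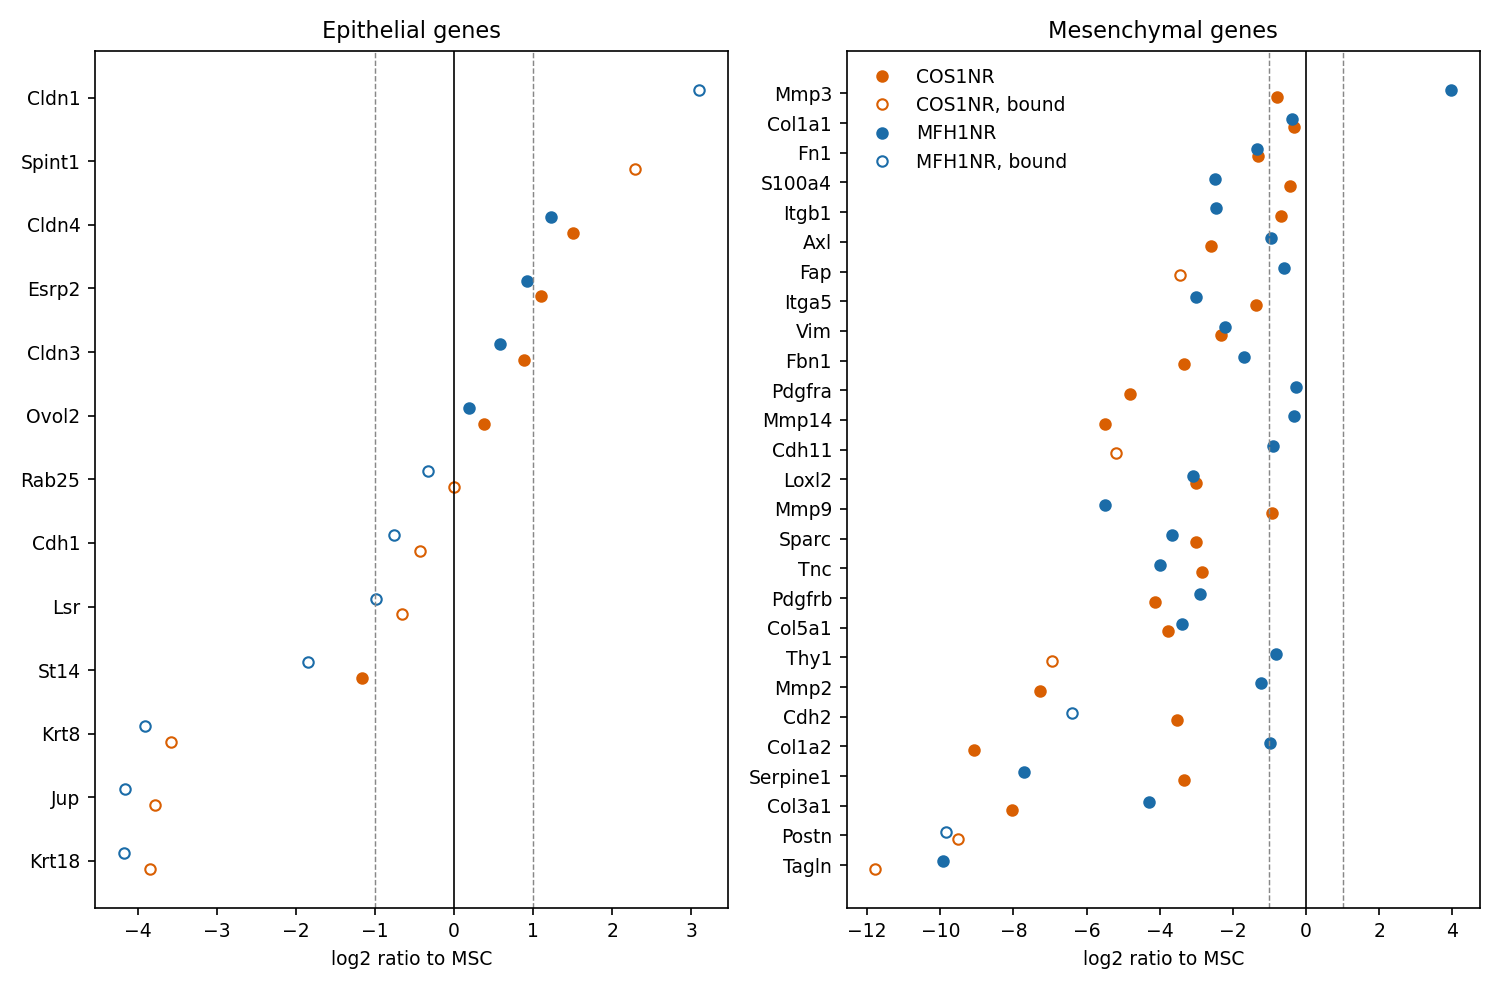
Log2 ratios to MSCs of the genes in the epithelial and mesenchymal lists, in COS1NR and MFH1NR, with bounds marked apart from measured ratios. Genes not well above background in either member of a comparison have no point. Epithelial genes spread on both sides of 0, while the mesenchymal genes lay mostly below it.

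Mesenchymal genes that accompany these factors were mostly lower in both sarcomas. Of 27 measured, 22 were at least 2-fold lower and 0 higher in COS1NR, and 18 were lower and 1 higher in MFH1NR, where 20.0% and 21.6% of all genes were lower and 20.6% and 19.3% higher. The median log2 ratio of the list was -3.35 and -2.47. Between the sarcomas, 13 of 26 were at least 2-fold higher in MFH1NR and 7 lower, against 12.4% and 15.1% of all genes, with a median log2 ratio of 0.80. Cdh2, the N-cadherin gene, had an intensity of 1511 in MSCs and 173 in COS1NR and was not well above background in MFH1NR, at least 84.8-fold lower there. A relation of Cdh2 to Snai2, which was highest in MFH1NR, was not tested. Vim, which encodes vimentin, had log2 ratios of -2.33 and -2.23. Col3a1 had an intensity of 299640 in the MSC culture, 1484 in COS1NR and 25824 in MFH1NR. Mmp3, a secreted protease, was the gene that was higher in MFH1NR, with a log2 ratio of 3.96 against -0.79 in COS1NR.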

How the data were processed

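RNA of COS1NR, MFH1NR and MSCs was measured on 1 Agilent whole rat genome array each. The authors deposited the processed spot intensity from Agilent Feature Extraction, named as 9.1 in the submitters' processing notes and 10.5.1.1 in the file headers. It is background-subtracted and detrended within an array and not scaled between arrays, and the deposited series table held the same intensities for all 45018 spots of each array. The RNA kits named in the methods and in the labels differ.

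Control spots and outlier spots (187 to 217 per array) were left out, spots of a probe were averaged on the log2 scale, and each array was divided by its 75th percentile. Probes were named by RefSeq mRNA accession. For each gene the probe with the highest mean level was taken, and the gene was used if well above background on at least 1 array (9970 genes). Where 1 side was not well above background, the brighter value was set against the lowest value called on the dim array or the dim probe's own value, whichever was higher, and the fold is a bound. Called means at least 2-fold apart. Spots printed several times on an array had a median SD of 0.0583, 0.0483 and 0.0473 in log2 in MSCs, COS1NR and MFH1NR. The number of arrays limits the precision.

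The factors, the gene lists and the rules were chosen with earlier results of these data known. Named are every factor and, from each list other than the cell markers, the genes of highest and lowest mean ratio to MSCs among those well above background on all arrays. Genes of these lists 2-fold from MSCs in opposite directions, Cdh1, Cdh2, Vim, Tcf3, Tcf12, Id1 to Id4, Ptprc, Csf1r, Cd68, C1qa and the 3 genes most similar to each factor were added. Lists were partners, other factors, corepressors, stability regulators, inducers, epithelial genes, mesenchymal genes, and markers of macrophages, T and B cells, dendritic cells, endothelium, erythroid cells, neutrophils, osteoblasts, adipocytes and proliferation. Steps were tested on simulated data. The normexp correction used limma 3.58.1 in R 4.3.3, and all else Python 3.11.15 with pandas 2.3.3, numpy 2.4.6 and matplotlib 3.10.9. Alternatives are given in the closing section.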

Additional observations from a re-analysis of the deposited data

Results flagged for a closer look

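Among the factors and the genes named from the lists other than the cell markers, 5 had ratios to MSCs of opposite sign in the sarcomas. Cell markers such as Spp1, with log2 ratios of -1.09 in COS1NR and 1.29 in MFH1NR, were not counted. The log2 ratio of MFH1NR to COS1NR was 5.19 for Snai2, 1.18 for Tcf4, -2.71 for Fosl1, 4.75 for Mmp3 and 0.27 for Tcf3. With 1 array per cell type these differences were not tested. Snai2 and Fosl1 were at least 2-fold from MSCs in both lines. The sign for Tcf3 in COS1NR turned without scaling and with median scaling. For Tcf4 the MFH1NR value lay within its spot error of that in MSCs, but not without scaling, where the log2 ratio was 0.94. Genes named for their likeness to Snai2 or Tcf4 share these signs by the way they were chosen.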

How the results depend on the processing

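No paired analysis was possible because each cell type had 1 array, and for the same reason no replicate could be left out. Over 18 ratios of the factors and 222 values, 3 changed direction, 5 were no longer 2-fold and 4 became 2-fold, and over 906 values of other named genes these were 22, 12 and 28. Several settings could not change a factor ratio, so these counts are no measure of stability. The series table held the same intensities, and the 3-fold limit alters no ratio. Every factor probe was well above background, so the background filters and raised limits changed nothing. Averaging of probes left genes with 1 probe as they were. The second probe of a gene, chosen by brightness, left 2 factors with a value, so that 2, 2 and 1 of them were at least 2-fold apart in COS1NR, in MFH1NR and between the sarcomas, with 19, 23 and 13 list genes in place of 49, 47 and 40. Fewer list genes had a second probe, so these counts are out of fewer genes and show no loss by themselves. Over all genes with a second probe, 16.1% were higher and 19.2% lower in COS1NR and 17.5% and 20.8% in MFH1NR. Between the sarcomas 11.3% were higher and 13.7% lower in MFH1NR. At 3-fold, 3 factors were called in MFH1NR and 1 between the sarcomas. The median of all genes moved from 0.09 and 0.01 to 0.49 and 0.77 without scaling, to 0.26 and 0.23 with median scaling and to -0.16 and 0.53 with 7 spike-in probes. Twist2 between the sarcomas was 1.08 without scaling and 1.52 with spike-in scaling, and Tcf4 in COS1NR was -1.26 with the latter. Normexp on median intensities of the spots (offset 50), spike-in scaling and raised background limits were chosen after seeing the data. Naming by gene name and normexp on the mean intensity were not run, since the files used here hold neither column. Low intensities near the background limit, such as Snai2 in COS1NR, limit the size of ratios.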

Other observations

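Markers of other cell types were read on the same arrays as summed levels in MSCs, COS1NR and MFH1NR. Each sum adds levels of different probes and can rest on 1 gene. Osteoblast markers were at 75.5, 30.8 and 153, of which Spp1, which encodes osteopontin, made up most, with intensities of 36180, 22285 and 149222. In MFH1NR the osteoblast genes Ibsp and Bglap were lower than in MSCs, with log2 ratios of -7.43 and -2.44, and Alpl had -0.84, while Sp7 was well above background in MFH1NR alone, at least 3.58-fold higher than in MSCs. These genes, and those named for the next lists, were chosen after their values were seen. Adipocyte markers were at 1.83, 38.1 and 0.334. Neutrophil markers were at 0.352, 11.7 and 0.117, and the COS1NR sum was mostly Lcn2, with an intensity of 8659 there. Dendritic cell markers were at 6.97, 4.64 and 15.9, with log2 ratios of 1.18 and 2.96 for Bst2, while Cd74 was at least 130-fold and 163-fold lower in COS1NR and MFH1NR. Endothelial markers were at 0.678, 0.172 and 0.110, T and B cell markers at 0.948, 1.17 and 0.644, and erythroid markers at 0.111, 0.198 and 0.225. Among the defining macrophage markers, the leukocyte gene Ptprc had an intensity of 57.5 in MSCs and was at least 2.57-fold and 3.23-fold lower in COS1NR and MFH1NR. Csf1r had log2 ratios of -4.97 and -5.42, Cd68 of -1.58 and -3.65, and C1qa was at least 244-fold and 306-fold lower.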
